A study of Mus musculus with 7 samples.

Results

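In shoulder joints after tendon repair, 9 genes known for their response to muscle denervation and muscle wasting, Chrna1, Chrng, Chrne, Ncam1, Musk, Trim63, Fbxo32, Hdac4 and Gadd45a, were followed. They were chosen by gene symbol in the count files of the Tnc-/- mice and by the same Ensembl identifiers in those of the wild type. All 9 were found, of 56854 identifiers counted in every file, and all 9 were among the 17791 genes with enough counts to be tested. The samples were whole shoulder joints of 7 mice, 1 RNA sequencing library per mouse. In every mouse the supraspinatus tendon, one of the rotator cuff tendons, had been repaired on the left side 2 weeks earlier. The comparison was between 3 wild-type mice and 4 Tnc-/- mice, which lack Tenascin C, a glycoprotein of the extracellular matrix. All 7 mice had the operation, so no library shows the uninjured shoulder or the denervated muscle, and neither nerve nor muscle was separated from the rest of the joint. The labels used here give no age, sex or strain background and do not say which part of the Tnc gene was removed.

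Skeletal muscle fibres hold acetylcholine receptors almost only at the nerve contact, the endplate. When a fibre loses its nerve, or is still immature, the receptor genes are switched on along the fibre, the gamma subunit takes the place of the adult epsilon subunit, and the adhesion molecule NCAM appears outside the endplate. The histone deacetylase HDAC4 takes part in that response through myogenin, and the ubiquitin ligases MuRF1 (Trim63) and atrogin-1 (Fbxo32), both targets of FoxO factors, tag muscle proteins for degradation during atrophy.

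The promoters of the receptor subunit genes are shown because they carry the E-box CAGCTG, a 6-letter core bound by myogenic factors such as MyoD and myogenin. In textbook accounts denervation acts through such E-boxes on Chrna1 and Chrng. The promoter of Trim63 is shown because it carries a FoxO motif as well. Each sequence is the 250 bases before the gene's first listed start site, 5′ to 3′ on the gene's strand, from RefSeq (build GRCm38.p6). Capitals mark CAGCTG and, in Trim63, the FoxO motif GTAAACA, which lies there on the opposite strand and so reads TGTTTAC. The 4 windows are chr2:73580339-73580588 (minus strand), chr1:87205561-87205810 (plus strand), chr11:70619195-70619444 (minus strand) and chr4:134314870-134315119 (plus strand), in the order printed.
Chrna1: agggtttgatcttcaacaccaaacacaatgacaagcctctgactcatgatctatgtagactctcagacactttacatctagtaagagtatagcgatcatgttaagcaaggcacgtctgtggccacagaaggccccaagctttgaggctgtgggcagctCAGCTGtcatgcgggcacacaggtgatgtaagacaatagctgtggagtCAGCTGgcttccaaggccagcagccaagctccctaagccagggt
Chrng: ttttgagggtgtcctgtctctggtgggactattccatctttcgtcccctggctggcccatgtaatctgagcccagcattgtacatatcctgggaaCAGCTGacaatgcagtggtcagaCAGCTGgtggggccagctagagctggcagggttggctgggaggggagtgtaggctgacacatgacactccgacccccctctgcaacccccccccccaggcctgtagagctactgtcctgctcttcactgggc
Chrne: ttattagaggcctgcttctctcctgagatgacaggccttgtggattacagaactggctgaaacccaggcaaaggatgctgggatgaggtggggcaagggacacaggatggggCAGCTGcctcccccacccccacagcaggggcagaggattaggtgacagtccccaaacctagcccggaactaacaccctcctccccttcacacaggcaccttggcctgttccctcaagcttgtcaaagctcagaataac
Trim63: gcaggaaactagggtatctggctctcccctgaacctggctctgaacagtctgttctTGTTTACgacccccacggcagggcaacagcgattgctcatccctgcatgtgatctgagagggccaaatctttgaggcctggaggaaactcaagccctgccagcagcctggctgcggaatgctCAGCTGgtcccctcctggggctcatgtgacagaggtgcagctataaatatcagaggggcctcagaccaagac

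Promoters were listed for 7 of the 9 genes; the other two were Ncam1 and Fbxo32. The search covered both strands from 250 bases before to 50 bases after the start, and its motifs were chosen after the expression values had been seen. CAGCTG occurred in 5 of the 7 promoters, with a first base 92 and 44 bases before the start in Chrna1, 155 and 132 in Chrng, 138 in Chrne, 68 in Musk and 72 in Trim63. Of 27025 mouse promoters of the same length, 16.1% held CAGCTG and 1.75% held it 2 or more times. The looser E-box CANNTG, which includes CAGCTG, was in 72.1% of all promoters. GTAAACA was in 3.55% of promoters and, among the 7, only in that of Trim63, 194 bases before the start. The N-box core CCGGAA, known from genes expressed under the endplate, was in 15.2% of promoters, and lay 76 bases before the start in Chrne and 23 before it in Gadd45a. Hdac4 held none of the 4 motifs in this window. These matches describe letters only; no binding was measured.

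Some facts of the libraries bear on every value below. Gene counts per library ran from 13.5 to 18.5 M (M, mega) in wild type and from 19.3 to 28.2 M in Tnc-/-. Levels are given in CPM, read counts relative to the library size after TMM scaling (edgeR's trimmed mean of M-values). Tnc itself measured 437, 292 and 327 CPM in the wild-type mice (libraries 1 to 3, the order used throughout) and 33.4, 38.9, 39.9 and 55.0 CPM in the Tnc-/- mice (libraries 1 to 4), so each library matched its label. The genotypes were counted against different identifier sets, 126 identifiers being listed for wild type only and 87 for Tnc-/- only, so a difference of genotype and a difference of counting cannot be told apart. Wild-type libraries 2 and 3 stood apart from the other 5. Receptor genes of smell and pheromone sensing, which a shoulder is not known to express, summed to 1410 and 998 CPM in these libraries, against 81.6 CPM in wild-type library 1 and 32.1 to 39.5 CPM in Tnc-/-. Long genes were also higher there: relative to wild-type library 1, the median log2 difference was -0.39 over tested genes spanning up to 10 kb, 0.93 at 100 to 300 kb and 2.84 above 300 kb. The fold changes of the 9 genes and of the called pathway genes are therefore given also without these libraries, where wild-type library 1 stands alone and is assumed to vary like the Tnc-/- group, and, where it matters, with the receptor gene signal subtracted per kb of gene span or used as a covariate. The signal was higher in every wild-type library than in every Tnc-/- library, so as a covariate it cannot be fully separated from genotype.

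Between the genotypes, 2 of the 9 genes passed the test (edgeR quasi-likelihood test, Benjamini-Hochberg adjusted p under 0.05 over all tested genes). Trim63 rose and Ncam1 fell in Tnc-/-. Over all tested genes 29.0% passed, 10.3% higher and 18.7% lower, so a count of 2 of 9 was near the background. The median log2 fold change of the 9 genes was -0.22, beside -9e-04 over all tested genes. CPM did not overlap between genotypes for 1 of the 9 genes, Trim63, while 35.1% of all tested genes did not overlap. Without wild-type libraries 2 and 3, Trim63 was at 0.63 and Ncam1 at -0.23 in log2 units. Neither call held there, but a fit with 1 wild-type library can call few genes of any kind, so this says little about the 9 genes. Without wild-type library 1, the wild type was libraries 2 and 3 alone. That fit called 6 of the 9 genes and 14113 of 21989 tested genes, so 6 of 9 was near its background. The plot of CPM by library shows all 63 values.

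**Figure D1:**
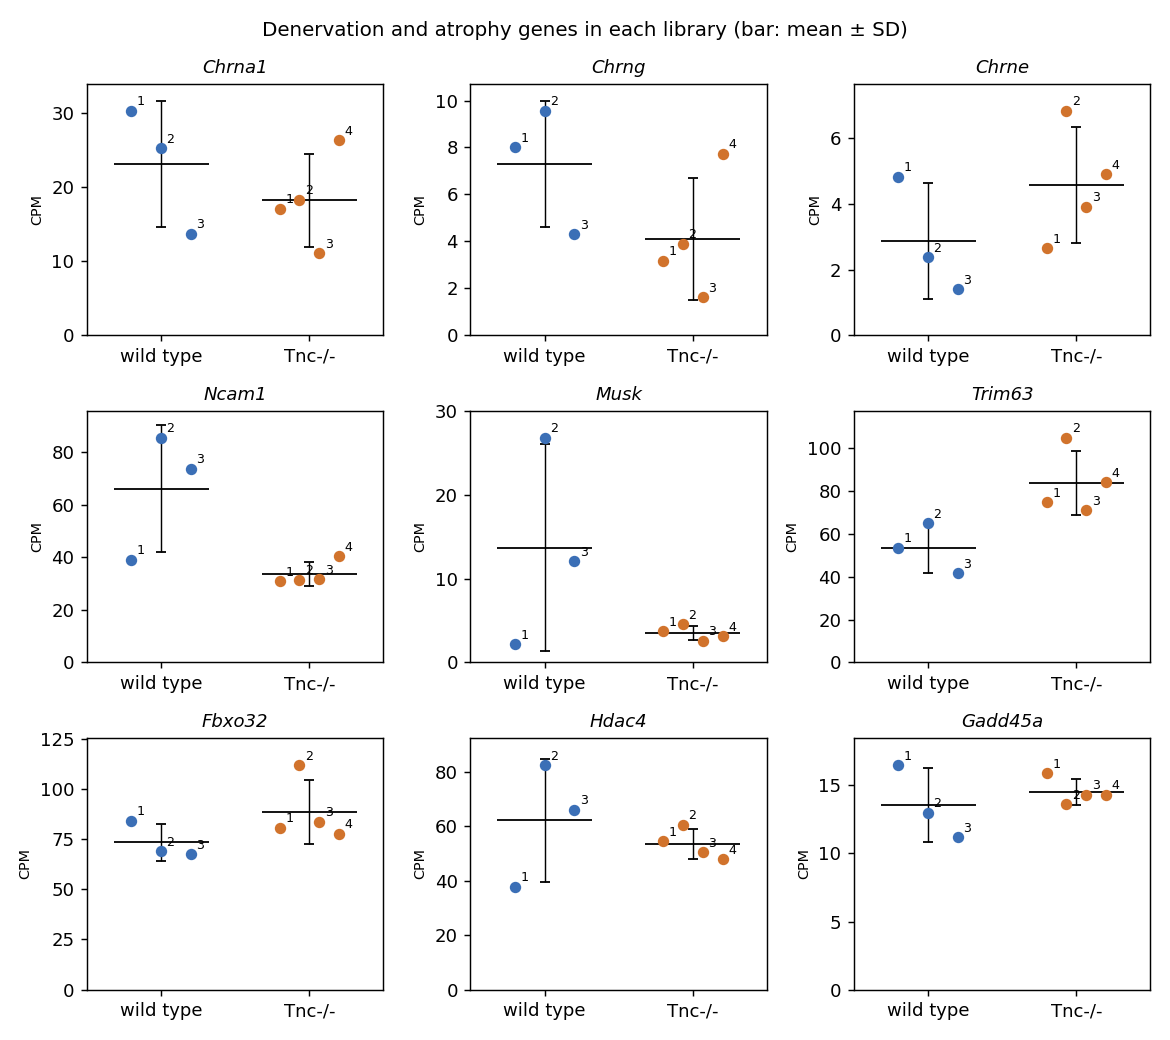
Level of each of the 9 genes in CPM (vertical axis, starting at 0) in wild-type libraries 1 to 3 (blue) and Tnc-/- libraries 1 to 4 (orange); numbers are library numbers, horizontal lines are means and bars are SD. Only Trim63 has every Tnc-/- library above every wild-type library, and in Ncam1, Musk and Hdac4 wild-type libraries 2 and 3 lie above library 1.

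Chrna1 (ENSMUSG00000027107) encodes the alpha subunit, which binds acetylcholine and is part of both the fetal and the adult muscle receptor. Its level was 30.3, 25.2 and 13.7 CPM in wild type and 17.1, 18.3, 11.1 and 26.3 CPM in Tnc-/-. The groups overlapped widely, with the lowest library in Tnc-/- and the highest in wild type. The log2 fold change of -0.34 (SE 0.34) did not pass the edgeR test (adjusted p = 0.478), nor did that of -0.74 without wild-type libraries 2 and 3 (adjusted p = 0.195). Without wild-type library 1 alone it was 0.00 (adjusted p = 0.996).

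Chrng (ENSMUSG00000026253) encodes the gamma subunit of the fetal receptor, the form that returns after denervation. The counts were low, 71 to 149 in wild type and 29 to 148 in Tnc-/-. In CPM the gene stood at 8.0, 9.57 and 4.31 in wild type and at 3.18, 3.90, 1.62 and 7.74 in Tnc-/-. Tnc-/- libraries 1 to 3 lay below all wild-type libraries, but Tnc-/- library 4 lay among them. The means were 7.29 ± 2.70 (SD, n = 3) and 4.11 ± 2.60 CPM (SD, n = 4), and the log2 fold change, -0.83 (SE 0.56), did not pass the edgeR test (adjusted p = 0.292). It was -0.97 without wild-type libraries 2 and 3 (adjusted p = 0.317).

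Chrne (ENSMUSG00000014609) encodes the epsilon subunit, which replaces gamma in the receptor of the mature, innervated endplate. It had 23 to 90 counts in wild type and 70 to 123 in Tnc-/-. Its CPM were 4.83, 2.39 and 1.40 in wild type and 2.66, 6.85, 3.92 and 4.92 in Tnc-/-. Wild-type libraries 2 and 3 were the lowest of the 7, and wild-type library 1 lay inside the Tnc-/- range. The log2 fold change was 0.67 (SE 0.56; edgeR, adjusted p = 0.398), and -0.09 without wild-type libraries 2 and 3 (adjusted p = 0.926), so its direction rested on those libraries. Without wild-type library 1 it was 1.37 and passed (edgeR, adjusted p = 0.0308), as did 14113 of 21989 genes tested in that fit.

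The ratio of gamma to epsilon, taken within each library, does not depend on how libraries are scaled. With 0.5 added to each count, the ratio of Chrng to Chrne reads was 1.65, 3.96 and 3.04 in wild type, and 1.19, 0.571, 0.418 and 1.57 in Tnc-/-. Every Tnc-/- library was below every wild-type library, and in Tnc-/- libraries 2 and 3 the adult subunit had more reads than the fetal one. On the log2 scale the means were 1.44 ± 0.65 in wild type (SD, n = 3) and -0.29 ± 0.89 in Tnc-/- (SD, n = 4). The difference of -1.73 gave p = 0.0571 in an exact two-sided permutation test, which is the smallest p that 3 against 4 libraries allow in this form, so it did not reach 0.05. Across leaving out each library, adding 1 in place of 0.5 and subtracting the receptor gene signal, the difference ran from -2.08 to -1.41. None of these settings left out wild-type libraries 2 and 3 together. Wild-type library 1 alone had a log2 ratio of 0.72, nearer to the Tnc-/- mean of -0.29 than the 1.99 and 1.61 of wild-type libraries 2 and 3. The highest Tnc-/- ratio, 1.57 in library 4, was close to the lowest wild-type ratio, 1.65 in library 1, the wild-type library with a low receptor gene signal.

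The genes around the receptor gave no shift in 1 direction. Of 16 other genes of the receptor and of endplate assembly, all were tested, 3 rose and 2 fell (edgeR, adjusted p under 0.05), with a median log2 fold change of -0.05. Ache, which encodes the acetylcholinesterase that ends transmission, was at 40.9, 25.6 and 21.1 CPM in wild type and at 92.0, 61.6, 70.9 and 63.8 CPM in Tnc-/-. That is 2.47-fold higher, with no overlap (log2 fold change 1.30, SE 0.25; edgeR, adjusted p = 0.00877). Dok7, whose protein binds and activates the kinase MuSK, stood at 6.87, 8.71 and 8.63 CPM in wild type and at 14.3, 24.0, 19.9 and 15.6 CPM in Tnc-/-, 2.29-fold higher without overlap (log2 fold change 1.19, SE 0.26, edgeR adjusted p = 0.0114). Agrn, which encodes the nerve-derived signal agrin that acts on MuSK through LRP4, rose as well (log2 fold change 0.87, SE 0.21, adjusted p = 0.0163).

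Without wild-type libraries 2 and 3, Dok7 still passed, at 1.42 (adjusted p = 0.0336), while Ache was at 0.81 (adjusted p = 0.0588) and Agrn at 0.40 (adjusted p = 0.165). Nrg1, which encodes the neuregulin that acts on receptor transcription, fell. Its wild-type levels were 4.03, 138 and 93.9 CPM, against 1.52 to 4.22 CPM in Tnc-/-, so wild-type library 1 lay inside the Tnc-/- range. In log2 units Nrg1 differed by -5.05 (SE 0.98, edgeR adjusted p = 0.00977), and by -0.77 without wild-type libraries 2 and 3 (adjusted p = 0.389). Nrg1 spans 1070 kb. Over that span the receptor gene signal came to 6.70 CPM in wild-type library 1, above the gene's own level there. In wild-type libraries 2 and 3 it came to 104 and 72.9 CPM. In Tnc-/- libraries 2 to 4 it came to 3.47, 3.23 and 2.91 CPM, above the gene's own 1.78, 1.79 and 1.52 CPM. Subtraction therefore left no counts in wild-type library 1 and in these Tnc-/- libraries. The log2 fold change of Nrg1 was then -6.52 (edgeR, adjusted p = 0.0382), and it rested on wild-type libraries 2 and 3. Etv5, an ETS factor of endplate nuclei, ranged from 25.1 to 58.7 CPM in wild type around a mean of 44.6 ± 17.4 (SD, n = 3), and averaged 19.8 ± 2.19 in Tnc-/- (SD, n = 4), without overlap. Its difference of -1.17 in log2 units (SE 0.27, edgeR adjusted p = 0.0138) became -0.35 without those libraries (adjusted p = 0.311). The other receptor subunits, Chrnb1 at 0.14 (adjusted p = 0.688) and Chrnd at -0.31 (adjusted p = 0.637), did not pass, and stood at -0.19 and -0.55 without those libraries (adjusted p = 0.633 and 0.448).

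Musk (ENSMUSG00000057280) encodes the receptor tyrosine kinase that gathers acetylcholine receptors under the nerve ending. Its level was 2.2, 26.8 and 12.1 CPM in wild type and 3.70, 4.57, 2.58 and 3.14 CPM in Tnc-/-. Wild-type library 1 was the lowest of all 7 and wild-type libraries 2 and 3 were the highest, so the groups overlapped. The log2 fold change of -1.97 (SE 0.68) did not pass the edgeR test (adjusted p = 0.0574), but passed in edgeR with libraries scaled by their totals (-2.26, adjusted p = 0.0443) or by fibre genes (-2.61, adjusted p = 0.0201) and in DESeq2 with Benjamini-Hochberg adjustment (-2.01, adjusted p = 0.0206). Without wild-type libraries 2 and 3 the sign turned, to 0.66 (adjusted p = 0.376), and with the receptor gene signal as a covariate it was 1.63 (adjusted p = 0.135). Without wild-type library 1 it was -2.38 and passed (edgeR, adjusted p = 5.25e-05), as did 14113 of 21989 genes tested in that fit. The receptor gene signal over the 88.3 kb span of Musk came to 8.60 and 6.02 CPM in wild-type libraries 2 and 3. Subtracting it left 1.66, 18.2 and 6.07 CPM in wild type and 2.30 to 4.29 CPM in Tnc-/-. Musk lies on chromosome 4 of GRCm38, 5.585 Mb from Tnc.

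Ncam1 (ENSMUSG00000039542) encodes the neural cell adhesion molecule, found on nerve and Schwann cells and on denervated and regenerating fibres. It stood at 39.1, 85.4 and 73.6 CPM in wild type and at 30.8, 31.4, 31.6 and 40.5 CPM in Tnc-/-. Wild-type libraries 2 and 3 lay above all others, and Tnc-/- library 4 lay above wild-type library 1. The means, 66.0 ± 24.0 (SD, n = 3) and 33.6 ± 4.66 CPM (SD, n = 4), gave a log2 fold change of -0.98 (SE 0.25) that passed the edgeR test (adjusted p = 0.0208). The call was lost on leaving out any of wild-type libraries 2 and 3 and Tnc-/- libraries 1 to 3, with adjusted p from 2.5e-05 to 0.0874 over the 7 such fits. Without wild-type libraries 2 and 3 together the log2 fold change was -0.23 (adjusted p = 0.492). With the receptor gene signal as a covariate it was 0.05 (adjusted p = 0.943). That signal came to 28.9 and 20.2 CPM over the 297 kb span of Ncam1 in those libraries, and after subtraction the levels were 37.2, 56.5 and 53.4 CPM in wild type and 29.8 to 39.8 CPM in Tnc-/- (log2 fold change -0.78, edgeR adjusted p = 0.0309). Schwann cell markers summed to 255 to 294 CPM in wild type and 289 to 304 CPM in Tnc-/-, and none of the 9 in that list was at 0 in every library. Of the 8 tested, Mbp rose (log2 fold change 0.81, edgeR adjusted p = 0.0121) and Cdh19 fell (-1.79, edgeR adjusted p = 0.0332), so the sum does not stand for each marker. The part of these markers in the Ncam1 difference was not tested.

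Hdac4 (ENSMUSG00000026313), the deacetylase that represses the myogenin repressor Dach2 in denervated muscle, had the same shape with a smaller difference. It was at 37.9, 82.6 and 66.1 CPM in wild type and at 54.5, 60.6, 50.6 and 48.0 CPM in Tnc-/-. All 4 Tnc-/- libraries lay between wild-type library 1 and wild-type libraries 2 and 3. Its log2 fold change was -0.22 (SE 0.24, edgeR adjusted p = 0.517). Without wild-type library 1 it was -0.38 and passed (edgeR, adjusted p = 0.0349), as did 14113 of 21989 genes tested in that fit. Without wild-type libraries 2 and 3 it was 0.49. Over its 267 kb span the receptor gene signal came to 26.0 and 18.2 CPM in those libraries, and subtracting it gave a log2 fold change of -0.03. Exons of Hdac4 share 3536 bases with the opposite-strand gene Gm26720, and those of Ncam1 share 417 with Gm11149. Those of Gadd45a share 337 with E230016M11Rik and those of Fbxo32 share 186 with Gm15943, also on the opposite strand. Whether counting used the strand is not given in the sources used here.

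The difference among wild-type libraries split the 9 genes by span, but did not rise with span among the long ones. The log2 ratio of wild-type libraries 2 and 3 to library 1 was 3.02 in Musk, 1.02 in Ncam1 and 0.96 in Hdac4, all spanning over 80 kb. Musk, the shortest of the 3 at 88.3 kb, had the largest ratio, while the median over tested genes of 30 to 100 kb was 0.14. In the other 6, spanning 2.36 to 39.1 kb, it ran from -1.38 in Chrne to -0.04 in Trim63. This is a description of 3 libraries, with no test, and the plot of that ratio against span gives it for all 9 genes and for the other genes of the pathway.

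**Figure D2:**
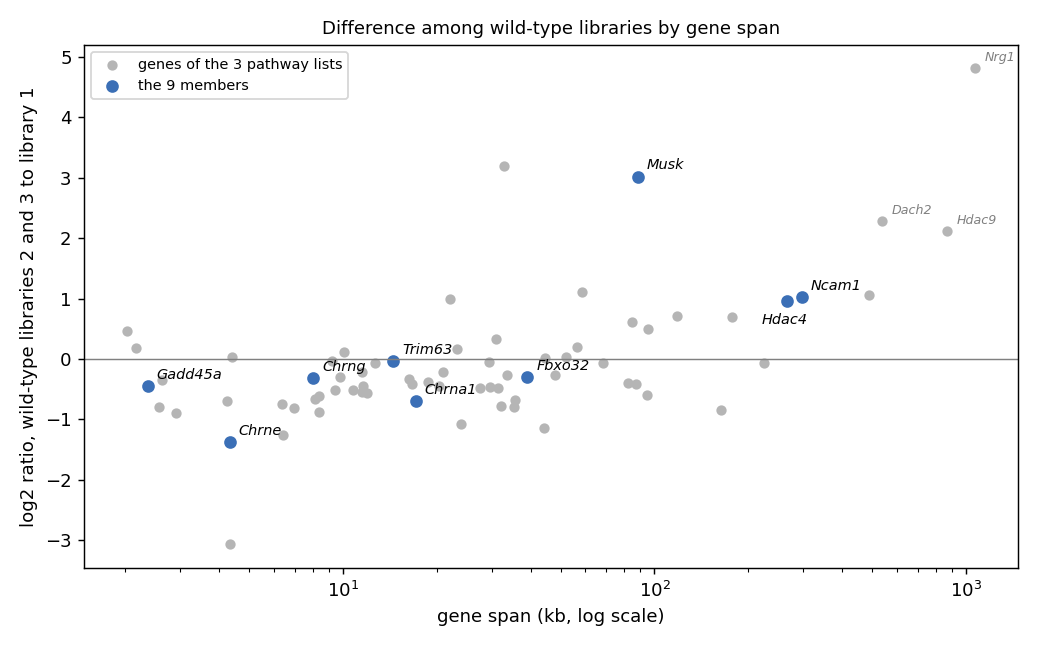
Log2 ratio of the mean of wild-type libraries 2 and 3 to wild-type library 1 (vertical axis) against gene span in kb (horizontal log axis) for the 9 genes (blue) and the tested genes of the 3 pathway lists (grey). Musk, Ncam1 and Hdac4 lie above 0 and the other 6 genes at or below it, and the long genes Nrg1, Hdac9 and Dach2 lie at the upper right. Not all grey genes follow span: Mef2c (163 kb) lies at -0.84 and Runx1 (225 kb) at -0.06, while Acvr2b (32.9 kb) lies at 3.20.

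Downstream of the nerve signal, the list of 17 regulators and targets of the denervation response had 3 genes higher and 2 lower in Tnc-/- (edgeR, adjusted p under 0.05), with a median log2 fold change of 0.24. Mef2d, a myocyte enhancer factor, was at 145, 110 and 101 CPM in wild type and at 205, 241, 235 and 198 CPM in Tnc-/-, 1.85-fold higher without overlap (log2 fold change 0.89, SE 0.17, edgeR adjusted p = 0.00837). Hdac5, a class IIa deacetylase like Hdac4, stood at 117, 68.0 and 77.8 CPM in wild type and at 146 to 170 CPM in Tnc-/- (0.82, SE 0.19, adjusted p = 0.0151). Ampd3, an AMP deaminase known to rise in atrophying muscle, rose as well (2.59-fold, edgeR adjusted p = 0.0240). None of these passed without wild-type libraries 2 and 3, where Mef2d was at 0.59 (adjusted p = 0.0903), Hdac5 at 0.40 (adjusted p = 0.175) and Ampd3 at 0.72 (adjusted p = 0.145).

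The genes that fell in this list were Hdac9 and Dach2, both long, spanning 870 and 539 kb. Over the span of Hdac9 the receptor gene signal came to 84.6 and 59.2 CPM in wild-type libraries 2 and 3. Over that of Dach2 it came to 52.5 and 36.7 CPM, above the gene's own level in these libraries. With the signal subtracted, Hdac9 was at -1.30 (edgeR, adjusted p = 0.0178), and Dach2 no longer had enough counts to be tested. Hdac9, whose product is a class IIa deacetylase that falls in denervated muscle in textbook accounts, was at 22.8, 116 and 84.5 CPM in wild type and 10.3 to 16.2 CPM in Tnc-/-. Its groups did not overlap, and the difference of -2.39 in log2 units (SE 0.46, edgeR adjusted p = 0.00929) became -0.68 without wild-type libraries 2 and 3 (adjusted p = 0.123). Dach2, a repressor of myogenin, stood at 3.22, 18.5 and 13.4 CPM in wild type and at 0.851 to 2.52 CPM in Tnc-/-, a difference of -2.85 in log2 units (SE 0.65, edgeR adjusted p = 0.0140) that became -1.01 without them (adjusted p = 0.291). Myog, the myogenin gene that drives receptor genes and both atrophy ligases after denervation, was at 33.6, 25.4 and 14.6 CPM in wild type and at 16.1, 26.0, 11.0 and 41.2 CPM in Tnc-/-, and did not pass (-0.06, adjusted p = 0.935; -0.52 without wild-type libraries 2 and 3, adjusted p = 0.652). Its highest and lowest libraries were both Tnc-/-.

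Trim63 (ENSMUSG00000028834) encodes MuRF1, a ubiquitin ligase of the sarcomere that marks myosin heavy chain and other thick filament proteins for degradation. Its level was 53.7, 65.2 and 41.6 CPM in wild type and 74.9, 105, 71.2 and 84.2 CPM in Tnc-/-. Every Tnc-/- library lay above every wild-type library. The means of 53.5 ± 11.8 (SD, n = 3) and 83.7 ± 14.9 CPM (SD, n = 4) differed 1.56-fold, and the log2 fold change, 0.65 (SE 0.19), passed the edgeR test (adjusted p = 0.0362). The size was nearly the same without wild-type libraries 2 and 3, 0.63, but no longer passed (adjusted p = 0.102). The call was also lost when wild-type library 3 or any 1 of the 4 Tnc-/- libraries was left out, with log2 fold changes from 0.50 to 0.81 and adjusted p from 0.00545 to 0.128 over the 7 such fits. With libraries scaled by their totals it was 0.40 (adjusted p = 0.142), and scaled by muscle fibre genes 0.08 (adjusted p = 0.782).

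Fbxo32 (ENSMUSG00000022358) encodes atrogin-1, the substrate-binding part of a ubiquitin ligase that turns over MyoD and a translation initiation factor. It stood at 84.2, 68.9 and 67.5 CPM in wild type and at 80.8, 112, 83.8 and 77.8 CPM in Tnc-/-. Tnc-/- library 2 was the highest and wild-type libraries 2 and 3 the lowest, while wild-type library 1 lay just above the other 3 Tnc-/- libraries. The log2 fold change of 0.27 (SE 0.16) did not pass the edgeR test (adjusted p = 0.243). It was 0.07 without wild-type libraries 2 and 3. Without wild-type library 1 it was 0.47 and passed (edgeR, adjusted p = 0.0222), as did 14113 of 21989 genes tested in that fit.

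Gadd45a (ENSMUSG00000036390), a stress-inducible gene known to rise in denervated fibres downstream of HDAC4, differed least. It was at 16.5, 13.0 and 11.2 CPM in wild type and at 15.9, 13.6, 14.3 and 14.3 CPM in Tnc-/-. The Tnc-/- values all fell inside the wild-type range. Its log2 fold change was 0.10 (SE 0.21, edgeR adjusted p = 0.748), and the sign turned without wild-type libraries 2 and 3, to -0.18 (adjusted p = 0.632).

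**Figure D3:**
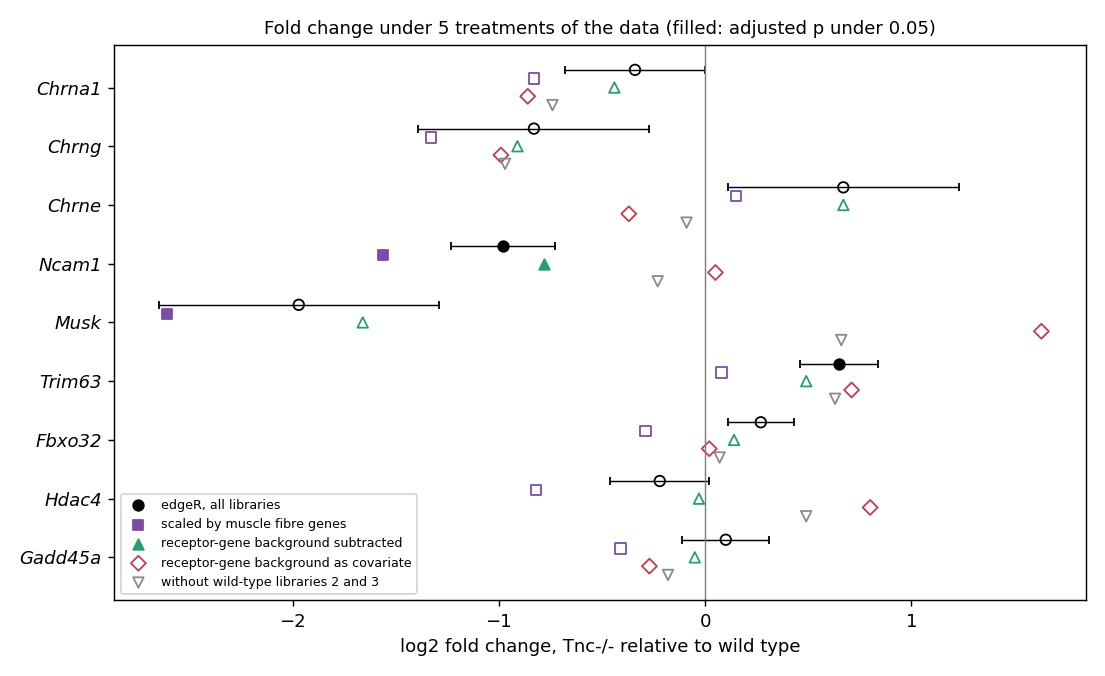
Log2 fold change of Tnc-/- relative to wild type (horizontal axis) for the 9 genes under 5 treatments of the data, with SE bars on the edgeR fit to all libraries (circles); filled symbols have an adjusted p under 0.05. Trim63 is called only in that fit, Ncam1 there, with muscle fibre scaling and with subtraction, and Musk moves from -1.97 to 1.63 with the covariate.

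Among 30 other ubiquitin ligases, FoxO factors, autophagy genes and related genes of muscle atrophy, 29 were tested. Trim32 was listed at 0 counts in all 7 libraries. So was Alas2, an erythroid gene, beside 2000 to 9650 CPM of the globin gene Hba-a1, and no level of Trim32 is read from its 0. In this list 3 genes rose and 2 fell (edgeR, adjusted p under 0.05), and the median log2 fold change was 0.18. Foxo4, a FoxO factor, was at 101, 60.7 and 59.8 CPM in wild type and at 117, 136, 130 and 135 CPM in Tnc-/- (log2 fold change 0.81, SE 0.20, adjusted p = 0.0185), with no overlap. Ddit4, an inhibitor of mTORC1 induced by stress, stood at 12.6, 16.7 and 12.1 CPM in wild type and at 17.9, 21.2, 37.1 and 38.7 CPM in Tnc-/- (1.05, SE 0.31, adjusted p = 0.0338), again with no overlap. Ubr2, a ligase of the N-degron pathway, also rose (0.47, SE 0.15, adjusted p = 0.0483).

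In the other direction, Foxo1 was at 43.8, 60.6 and 74.4 CPM in wild type and at 37.5 to 42.4 CPM in Tnc-/- (-0.55, SE 0.18, adjusted p = 0.0470). Usp14, a deubiquitinase of the proteasome, stood at 62.8, 68.7 and 60.0 CPM in wild type and at 39.9 to 53.4 CPM in Tnc-/- (-0.44, SE 0.13, edgeR adjusted p = 0.0385). Usp14 did not follow the split within wild type, and its log2 fold change was -0.42 without wild-type libraries 2 and 3 (adjusted p = 0.165), where Ddit4 was at 1.18 (adjusted p = 0.125), Foxo4 at 0.35 (adjusted p = 0.221), Ubr2 at 0.21 (adjusted p = 0.50) and Foxo1 at -0.11 (adjusted p = 0.712). Over the 3 lists 15 of 62 tested genes passed, 9 higher and 6 lower, beside 29.0% of all tested genes. Over the 7 fits that each left out 1 library, Dok7, Ache, Nrg1, Hdac9 and Mef2d passed in every fit. With libraries scaled by fibre genes, however, Dok7 (0.58, adjusted p = 0.176) and Mef2d (0.35, adjusted p = 0.119) did not pass, and with the receptor gene covariate none of these 5 did: Dok7 was at 1.53 (adjusted p = 0.0794), Ache at 0.64 (adjusted p = 0.277), Nrg1 at 0.62 (adjusted p = 0.55), Hdac9 at -0.04 (adjusted p = 0.949) and Mef2d at 0.50 (adjusted p = 0.269). With the receptor gene signal subtracted instead, all 5 passed in edgeR. Dok7 was then at 1.37 (adjusted p = 0.0138), Ache at 1.17 (adjusted p = 0.0140) and Mef2d at 0.74 (adjusted p = 0.0129). Hdac9 was at -1.30 (adjusted p = 0.0178) and Nrg1 at -6.52 (adjusted p = 0.0382). For Nrg1 the subtracted signal exceeded the gene's own level in wild-type library 1 and Tnc-/- libraries 2 to 4, so its value rested on wild-type libraries 2 and 3. On leaving out 1 library, Hdac5 was lost only without wild-type library 3, and Dach2 without wild-type library 2 or 3. Etv5 was lost without any of wild-type libraries 2 and 3 and Tnc-/- library 3. Agrn and Ddit4 were lost without any of wild-type libraries 2 and 3 and Tnc-/- libraries 3 and 4. Ampd3 was lost without any of wild-type libraries 2 and 3 and Tnc-/- libraries 1 to 3, and Foxo4 without any of wild-type libraries 2 and 3 and Tnc-/- libraries 2 to 4. Ubr2, Foxo1 and Usp14 each passed in 1 of the 7 fits.

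**Figure D4:**
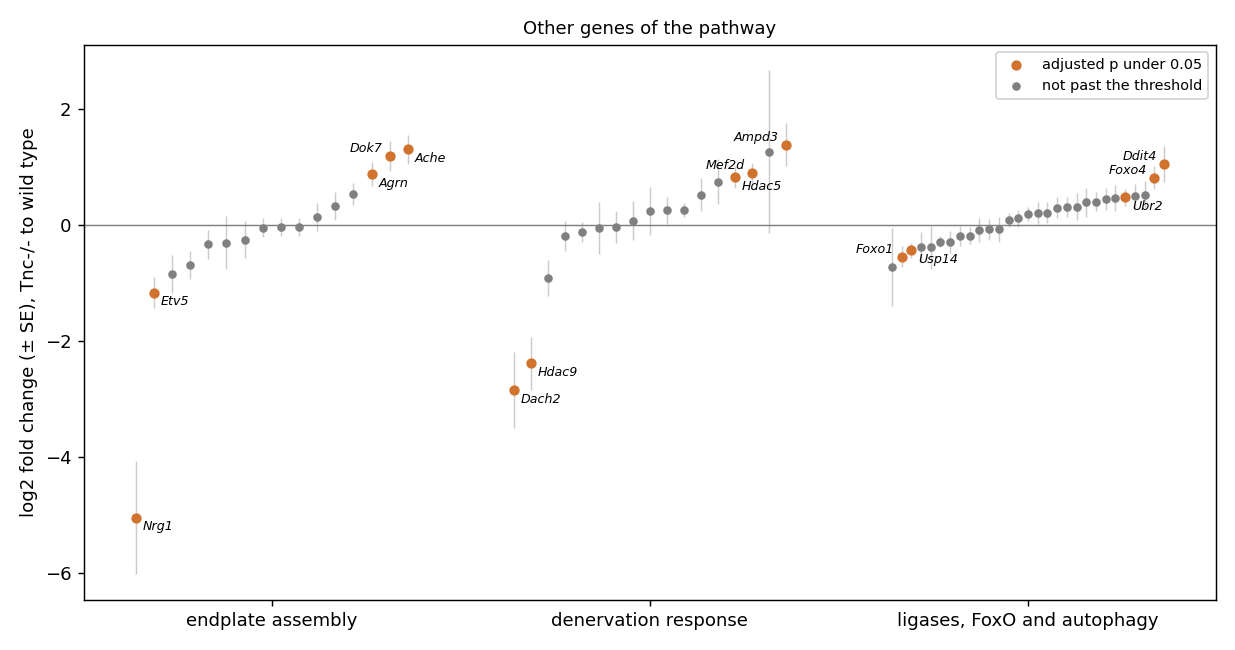
Log2 fold change of Tnc-/- relative to wild type with SE bars (vertical axis) for the tested genes of the 3 pathway lists, ordered by size within each list; orange points have an edgeR adjusted p under 0.05 and are named. Each list has 3 orange points above 0 and 2 below it.

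All 9 genes are expressed in muscle, so their levels were also set against the amount of muscle RNA. The 14 genes of the fibre list, which include Acta1, Ckm and Myh4, were 39700, 32100 and 29100 CPM in sum in wild type and 41600, 62400, 49400 and 44900 CPM in Tnc-/-, with every Tnc-/- library above every wild-type library. Their mean log2 CPM was higher by 0.70 in the Tnc-/- libraries (by exact permutation, two-sided, p = 0.0571 as double the smaller tail, 0.0286 by absolute difference). By edgeR, 2 of the 14 passed, both higher, Myh4 and Actn3, beside 29.0% of all tested genes that passed and 10.3% that passed as higher. The median log2 fold change of the list was 0.55. Tnnc2 was near 0 in all libraries, with 0 counts in wild-type library 2, yet weighed as much as any other gene in that mean. It thus lowered the wild-type library 2 mean, and the 0.70 was not computed without it. Markers of satellite cells and myoblasts summed to 33.5 to 43.5 CPM in wild type and 32.7 to 48.0 CPM in Tnc-/-. Of these 6 markers, Cdh15 rose (log2 fold change 0.90, edgeR adjusted p = 0.0425) and Calcr fell (-2, edgeR adjusted p = 0.0309). The even sum therefore does not stand for each marker. In bulk tissue, fewer fibres and less RNA per fibre cannot be told apart, and the part of muscle content in the differences above was not tested beyond the values that follow.

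Relative to the mean log2 CPM of the fibre list, 3 of the 9 genes did not overlap between the genotypes, all lower in Tnc-/-, while 40.7% of all tested genes did not overlap on this scale. With Tnnc2 left out of the list, the count among the 9 was also 3. Fbxo32 was at -3.97, -3.71 and -3.83 in wild type and at -4.09, -4.32, -4.29 and -4.38 in Tnc-/-, a difference of -0.44 with little spread inside either group. Its exact two-sided permutation p was 0.0571 as double the smaller tail, the smallest this form can give, and 0.0286 by absolute difference. For Ncam1 the difference was -1.61, with the same p in both forms (exact permutation, 0.0571 and 0.0286), and for Gadd45a it was -0.58 (exact permutation p = 0.0571 in both forms). Trim63, higher in CPM, stood at -4.62, -3.79 and -4.53 in wild type and at -4.20, -4.42, -4.53 and -4.27 in Tnc-/-. Per unit of fibre RNA its groups overlapped and the difference was -0.04 (exact permutation p = 0.914).

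The receptor subunits on this scale differed by -1.03 in Chrna1, -1.66 in Chrng and 0.07 in Chrne (exact permutation p = 0.114, 0.114 and 0.914). Chrng stood at -7.36, -6.55 and -7.79 in wild type and at -8.75, -9.15, -9.96 and -7.71 in Tnc-/-, where Tnc-/- library 4 again kept the groups from separating. Musk differed by -2.08 and Hdac4 by -0.85 (exact permutation p = 0.229 for both). The whole gene set moved with this scaling: when libraries were scaled by fibre genes in edgeR, the median log2 fold change of all tested genes became -0.54, with 180 genes higher and 5833 lower. That compares with 1830 higher and 3329 lower after TMM, and with 951 higher and 4541 lower after scaling by library totals, where the median was -0.24.

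**Figure D5:**
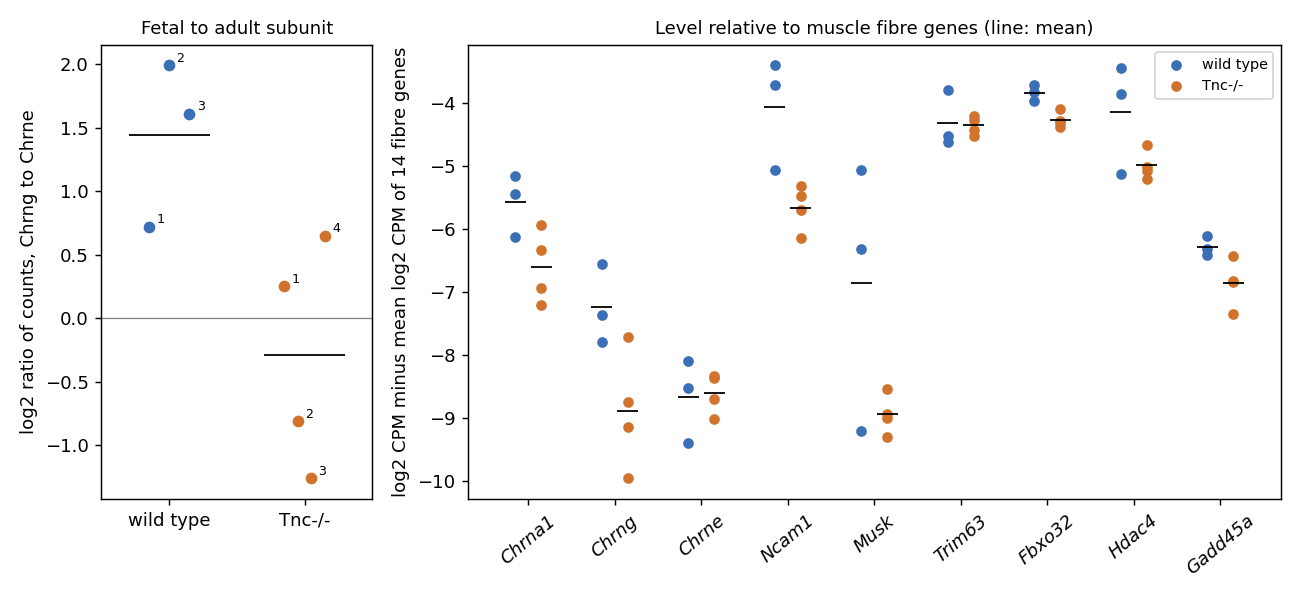
Left, log2 ratio of Chrng to Chrne counts (0.5 added to each) by library; right, log2 CPM of each gene minus the mean log2 CPM of 14 muscle fibre genes, with 1 point per library, blue for wild type and orange for Tnc-/-, and lines at the means. All Tnc-/- ratios on the left lie below all wild-type ratios, and on the right only Ncam1, Fbxo32 and Gadd45a show no overlap.

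Compared per kb of exon, so that genes can be ranked, Trim63 was the highest of the 9 in both genotypes, at 18.8 ± 4.15 CPM per kb in wild type (SD, n = 3) and 29.5 ± 5.25 in Tnc-/- (SD, n = 4). Fbxo32 was second at 10.5 ± 1.33 and 12.7 ± 2.26, followed by Gadd45a at 7.69 ± 1.52 and 8.25 ± 0.554. The ranges of Trim63 and Fbxo32, and of Fbxo32 and Gadd45a, did not overlap in either genotype. In wild type Gadd45a was followed by Ncam1 (7.62), Chrna1 (5.26), Hdac4 (3.93), Musk (3.63), Chrng (1.75) and Chrne (1.70), and from Gadd45a down each gene's range overlapped that of the next. In Tnc-/- the order below Gadd45a was Chrna1 (4.16), Ncam1 (3.87), Hdac4 (3.38), Chrne (2.71), Chrng (0.988) and Musk (0.926 CPM per kb). There Gadd45a stood clear of Chrna1, and from Chrna1 down each range overlapped the next. Chrng and Chrne thus changed places between the orders, with overlapping ranges in both.

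Across the 7 libraries the 9 genes fell into patterns, given here as Pearson correlations of log2 CPM without a test, since the libraries share genotype, depth and the split within wild type. Chrna1 and Chrng moved together (r = 0.91, n = 7). Musk followed Hdac4 (0.92) and Ncam1 (0.89), the 3 long genes. Chrne followed Fbxo32 (0.83) and Trim63 (0.75), and these ligases followed each other (0.73), while Chrne and Chrng did not (0.01).

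The members were compared with 12339 tested genes that averaged 5 CPM or more, with predicted gene models and pseudogenes left out by symbol. Among these the closest to Chrna1 were Chrnd (r = 0.96), the receptor's delta subunit, Prss35 (0.945) and Myl4 (0.944), an embryonic myosin light chain. Closest to Chrng were Mymk (0.964), which encodes the myoblast fusion protein myomaker, Lurap1l (0.948) and Pdgfrl (0.927). Fbxo32 was closest to Smyd1 (0.996), a muscle methyltransferase, Zfp106 (0.989) and Rtn4ip1 (0.981). Trim63 was closest to Mrps21 (0.985) and Timm17a (0.977). For Chrne the nearest were Mtfr1l (0.993), Gdf11 (0.989) and Saraf (0.981), and for Gadd45a Slamf9 (0.977), Alg2 (0.971) and Slc39a8 (0.967). Ncam1 was nearest to Trpm6 (0.999), Mapk10 (0.998) and Zfp385c (0.997), Musk to Armc9 (0.998), Slf2 (0.994) and B3gntl1 (0.991), and Hdac4 to Ankrd11 (0.991), Dnaaf9 (0.987) and Gramd1b (0.986). With only 7 libraries and so many genes compared, these names are a description.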

How the data were processed

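Whole shoulder joints of 7 mice, 3 wild type and 4 Tnc-/-, grouped by the genotype in the labels, gave 1 poly(A) RNA library each. Nothing states that the mice came from separate litters, so p-values measure the spread between these animals. The authors deposited raw read counts per gene. FastQC 0.11.9, HISAT2 2.2.1, HTSeq 2.0.2, DESeq2 1.38.3 and the build GRCm39 (mm39) are named per the submitters' processing notes; the annotation release and strand setting are not given in the sources used here. Rows naming no gene held 30.1 to 32.7% of reads in the Tnc-/- files and were left out. No value column was unmapped (0).

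Counts of the 56854 shared identifiers entered edgeR 4.0.16 (R 4.3.3; filterByExpr, TMM, robust quasi-likelihood F test with genotype as its 1 term, Benjamini-Hochberg adjustment, threshold 0.05), with DESeq2 1.42.0 as an alternative. The code was tested on simulated data. SE is the absolute log2 fold change over the root of its F statistic. Spans and exon lengths came from GENCODE M21 (GRCm38). The receptor gene signal came from 1514 olfactory and vomeronasal receptor genes. As a covariate it was the log2 of their summed CPM, minus its mean over libraries. For subtraction it was the counts per kb of span over the 1513 of them with a span, multiplied by the span of each gene.

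Permutation tests ran over the 35 arrangements of the 7 libraries. Their two-sided p is double the smaller tail, whose minimum is 0.0571. This form was adopted after the share of arrangements with an absolute difference at least as large had been computed for the muscle fibre level (0.0286) and the subunit ratio (0.0571); it is the larger of the 2 for the fibre level, and both are printed where they fall on different sides of 0.05.

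The members, lists, tests and motifs were chosen with earlier results of these data known. Named are all 9 genes, every called gene of the 3 pathway lists (the 4 of smallest p in each with values), and the 3 genes most correlated with each member; 1 gene this rule selects and 1 value of the closing section are not reported here. Myog, Chrnb1, Chrnd, Mef2c, Runx1, Acvr2b, Trim32, Myh4, Actn3, Tnnc2, Cdh15, Calcr, Mbp, Cdh19 and the genes with outlying libraries in the closing section were named after their values were seen. Other marker lists, used as checks, summed to 1670 to 2890 CPM in wild type and 1590 to 4060 CPM in Tnc-/- for chondrocytes, 971 to 1460 and 1160 to 1460 CPM for osteoblasts, and 4880 to 9430 and 13500 to 26400 CPM for erythroid cells, where Alas2 was at 0 in every library. Alternatives were other scalings and filters, the receptor gene signal subtracted or as a covariate, leaving out libraries and the replicate number as a block; a fibre list without Tnnc2 and the other permutation p were added after seeing the data.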

Additional observations from a re-analysis of the deposited data

Results flagged for a closer look

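Of 81 values examined over the 4 Tnc-/- libraries, 8 had a highest or lowest library whose gap to the next, divided by the group's range, exceeded Dixon's critical value for 4 samples; chance alone marks about 1 value in 20. Among the 9 denervation and atrophy genes this was Ncam1, where Tnc-/- library 4 stood at 40.5 CPM above 30.8 to 31.6 CPM in the other three (gap ratio 0.921). Library 4 was also the high one for Tnfrsf12a, the receptor of TWEAK (54.4 CPM against 31.0 to 32.5 CPM, 0.934), for Cblb, a ubiquitin ligase (35.0 against 31.0 to 31.6 CPM, 0.846), and for Prkar1a, a regulatory subunit of protein kinase A (260 against 243 to 245 CPM, 0.878). Library 1 was high for Nrg1 (4.22 against 1.52 to 1.79 CPM, 0.898) and low for Bnip3, a mitophagy gene (9.36 against 15.6 to 16.3 CPM, 0.899). Library 3 was low for Sln, which encodes the calcium pump inhibitor sarcolipin (9.18 against 21.1 to 22.1 CPM, 0.927), and for Psmd11, a proteasome subunit (85.5 against 91.3 to 92.3 CPM, 0.849). The cause was not tested.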

How the results depend on the processing

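The count of genes called moved from 5159 to 9423 with DESeq2 and Benjamini-Hochberg adjustment, 1890 with DESeq2 and Bonferroni, 443 with the receptor gene covariate, 3283 after its subtraction, 825 without wild-type libraries 2 and 3, 1932 with the replicate block, and 2229 to 14113 on leaving out 1 library each, the highest without wild-type library 1. Of the 9 denervation and atrophy genes, 0 passed with DESeq2 and Bonferroni, 0 with the covariate and 0 without wild-type libraries 2 and 3 (3 had an unadjusted p under 0.05 in each), 1 passed after subtraction and 1 with at least 10 counts in every sample; on leaving out 1 library each, 0 to 6 passed, with 6 only without wild-type library 1 (Chrne, Ncam1, Musk, Trim63, Fbxo32 and Hdac4). The 15 calls in the pathway lists became 3, 1 and 4 under DESeq2 with Bonferroni, the covariate and without wild-type libraries 2 and 3, and 5 to 32 on leaving out 1 library each; scaling by fibre genes gave 21, of which 20 were lower. The fit without wild-type library 1 called 14113 of 21989 tested genes, so its 6 of 9 was near the background of that fit. Scaling by fibre genes called 6013 of 17791 tested genes, 5833 of them lower. Its 21 list calls among 62 tested list genes, and their mostly lower direction, were therefore near the background as well. DESeq2 with Bonferroni called 1890 of 29121 tested genes and the covariate fit 443 of 17791, so few list calls were to be had there. Genes separated relative to fibre RNA numbered 3 to 5 on leaving out 1 library each. Among genes called in either fit, signs turned with the covariate in Ncam1 (0.05), Nrg1 (0.62) and Foxo1 (0.04), with fibre scaling in Ubr2 (-0.08), and without wild-type libraries 2 and 3 in Acvr2b, an activin receptor gene (2.00, adjusted p = 0.0457). Signs of other members, called in neither fit, also turned: with the covariate in Musk (1.63), Hdac4 (0.80), Chrne (-0.37) and Gadd45a (-0.27), with fibre scaling in Fbxo32 (-0.29) and Gadd45a (-0.41), with library totals (-0.13), subtraction (-0.05) and without wild-type library 3 (-0.02) in Gadd45a, without wild-type library 2 in Hdac4 (0.04), and without wild-type libraries 2 and 3 in Musk (0.66), Hdac4 (0.49), Chrne (-0.09) and Gadd45a (-0.18). The cause was not tested. Replicate numbers are shared by the labels, but same-numbered libraries did not deviate together (r = 0.01, 0.073 and -0.001; 1 of 3 wild-type libraries correlated best with its own number), so they do not pair the mice. With the replicate block the calls among the 9 genes numbered 2 and those in the lists 9, and over 3 pairs the subunit log2 ratio differed by -2.04. Low counts limit Chrng, Chrne and Musk most.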
